A study of Lemna gibba with 6 samples.

Results

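The genes of phosphoenolpyruvate carboxylase (PEPC) and phosphoenolpyruvate carboxykinase (PEPCK) were examined in the duckweed Lemna gibba, a small floating aquatic plant. The members were taken from the study's table linking metabolic reactions to genes, by enzyme, a rule that uses no expression value. They are 5 of the 16340 genes in the deposited table: the PEPC genes LEMGIv51_A5_001695_1, LEMGIv51_A5_004208_1 and LEMGIv51_A5_016663_1, and the ATP-dependent PEPCK genes LEMGIv51_A5_021609_1 and LEMGIv51_A5_021610_1. A further PEPCK gene of the reaction table, LEMGIv51_A5_016790_1, has no row among the 16340 genes and so could not be analysed.

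Plants of clone G3 7742a were grown axenically in continuous light on 1 of 2 nitrogen supplies. The inorganic condition (INS) held 12.4 mM nitrate and 1.3 mM ammonium, and the organic condition (ONS) held 6.85 mM glutamine as the nitrogen source. Glucose at 5 g per L was present in both, so INS is no sugar-free control. Polyadenylated RNA from whole plants, fronds and roots together, was sequenced as directional 101-bp paired reads, with 3 biological replicates in each condition. All plants came from 1 clone, and a difference in a whole-plant library does not separate fewer cells of a type from less RNA per cell. In its growth cultures the paper reported a larger root share of dry weight in ONS than in INS. Those INS cultures were also grown for longer. Any part of these differences in the values below was not tested.

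PEPC adds bicarbonate to phosphoenolpyruvate (PEP) and makes oxaloacetate in the cytosol. In most plant tissues it refills the tricarboxylic acid cycle when carbon skeletons are drawn off for amino acids. PEPCK runs the other way: it uses ATP to release carbon dioxide from oxaloacetate and returns PEP, which can feed glucose synthesis or pyruvate supply. Plant PEPCK is also known from tissues that metabolise amino acids and from seeds that convert stored lipid into sugar.

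Every one of the 5 genes had a higher mean on glutamine than on nitrate and ammonium, against 53.7% of the 15248 genes with an overall mean of at least 10 and a value in both conditions. The values are the authors' condition means of read counts divided by library size factors. Of the 5 genes, 3 had a log2 ratio of at least 1, which 3.23% of those genes had. The median log2 ratio was 1.01 over the 5 genes and 0.04 over all 15248. PEPCK had the larger ratios, and each of its genes lay above each PEPC gene.

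**Figure D1:**
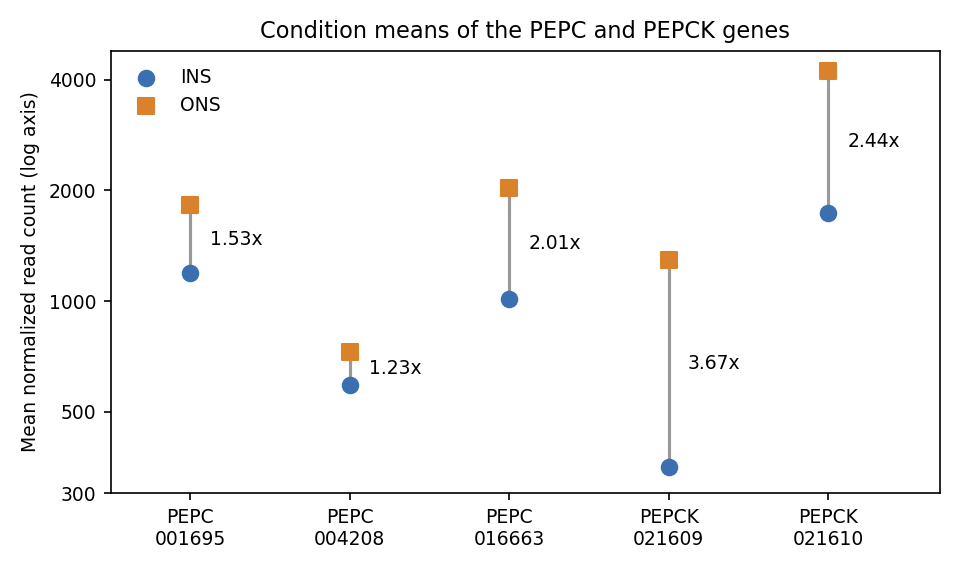
Authors' mean normalized read count (log axis) of the 3 PEPC and 2 PEPCK genes in INS (circles) and ONS (squares), with the fold of ONS over INS beside each line and no error, since these are condition means. The ONS mean is the higher of the pair in every gene, from 1.23-fold in PEPC LEMGIv51_A5_004208_1 to 3.67-fold in PEPCK LEMGIv51_A5_021609_1; heights of different genes are not corrected for transcript length.

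Some facts on the libraries limit what can be said of these means. Values per library were not used here as such; they were derived from the condition means, in which the read number of each library enters with a fixed weight. Printed to 10 significant digits, a mean can be solved for the read numbers behind it, and 1 combination was found for 11517 genes, all with an overall mean below 1000. Libraries recovered this way can be named only by condition and depth, since nothing ties them to replicate numbers. Their estimated depth ran from 8.32 to 25.9 M reads in INS and from 14.4 to 35.8 M reads in ONS. Spearman's rho across recovered genes was 0.928 to 0.973 between libraries of a condition and 0.839 to 0.942 between conditions. The deepest INS library stood apart, with the lowest values both within INS (0.928 to 0.945) and against ONS (0.839 to 0.911). Among the members, reads were recovered in full for PEPC LEMGIv51_A5_004208_1, and in INS alone for PEPCK LEMGIv51_A5_021609_1. For the other 3 genes many combinations gave the same mean, so no error and no test can be given for them.

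The log2 ratios of the PEPC genes ran from 0.30 to 1.01. PEPC LEMGIv51_A5_016663_1 had the largest ratio, from an authors' mean of 1013 in INS to 2033 in ONS, a fold of 2.01 and a log2 ratio of 1.01. It stood at rank 484 of the 15248 genes when these were ordered from the highest ratio. Among the 6233 genes with an overall mean of at least 500, 1.01% had a ratio as high. Its log2 ratio was 0.39 above that of PEPC LEMGIv51_A5_001695_1 and 0.71 above that of PEPC LEMGIv51_A5_004208_1.

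PEPC LEMGIv51_A5_001695_1 went from an authors' mean of 1193 in INS to 1824 in ONS, a fold of 1.53 and a log2 ratio of 0.61. Of the 15248 genes, 10.5% had a ratio as high. Among those with an overall mean of at least 500 the share was 5.47%. This gene thus sat between the other PEPC genes.

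PEPC LEMGIv51_A5_004208_1 is the member whose reads could be counted in each library. In INS it had 681, 987 and 214 reads from the deepest library to the shallowest, and in ONS 1463, 669 and 528. Divided by the size factors, these were 491.1, 801.2 and 479.4 normalized reads in INS and 745.1, 765.6 and 666.7 in ONS. The middle INS library was the highest of all 6, so the conditions overlapped, while the other INS libraries lay below every ONS library. The means were 590.6 ± 182.5 in INS and 725.8 ± 52.2 in ONS (SD, n = 3 each), and the spread was wider in INS than in ONS.

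The test across genes did not call this difference. In limma, fitted to log2(normalized reads + 1) of 10426 genes with recovered reads and a mean of at least 10, PEPC LEMGIv51_A5_004208_1 had a log2 fold change of 0.34 (SE 0.24) with a Benjamini-Hochberg adjusted p of 0.476. In that fit 0.911% of genes were called higher in ONS at an adjusted p of at most 0.05, and 0.297% when a change of more than 4-fold, the study's threshold, was also asked. On the scale of the condition means its log2 ratio was 0.30, which 28.4% of the 15248 genes reached. Leaving out 1 library at a time gave log2 fold changes of 0.21 to 0.58 with adjusted p of 0.265 to 0.741, so no library decided the call.

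PEPCK LEMGIv51_A5_021609_1 had the largest ratio of the 5 genes, with authors' means of 353 in INS and 1297 in ONS, a fold of 3.67 and a log2 ratio of 1.88. It stood at rank 59 of the 15248 genes. Among the 6233 genes with an overall mean of at least 500, 7 had a ratio as high, this gene included.

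Its INS reads could be settled and were uneven. There were 210, 540 and 210 reads from the deepest library to the shallowest, which is 151.5, 438.4 and 470.4 normalized reads, a mean of 353.4 ± 175.6 (SD, n = 3). The lowest value came from the deepest INS library, the one that stood apart in its correlations, and was 3.11-fold below that of the shallowest. Over the remaining INS libraries the mean was 454.4, and the ONS mean was then 2.85-fold higher (log2 ratio 1.51).

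In ONS, 7 splits of the reads gave the deposited means equally well, so the value of each library stayed unknown. In 4 of the 7 the lowest ONS library had at least 532.2 normalized reads, above the highest INS library, and no overlap remained. In the other 3 a single ONS library had between 137.6 and 311.3 normalized reads, below the highest INS library, and in 1 of these splits it lay below every INS library. Put into the limma fit 1 after another, the 7 splits gave log2 fold changes of 1.26 to 1.95, above 0 in all of them. The adjusted p ran from 0.0226 to 0.436 and was at most 0.05 in 2 of the 7. It was 0.0226 to 0.0863 in the splits without overlap and 0.308 to 0.436 in those with it. The deposited means thus fix the ratio of the means, but neither the log2 fold change in limma nor whether the difference exceeds the spread between the libraries.

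**Figure D2:**
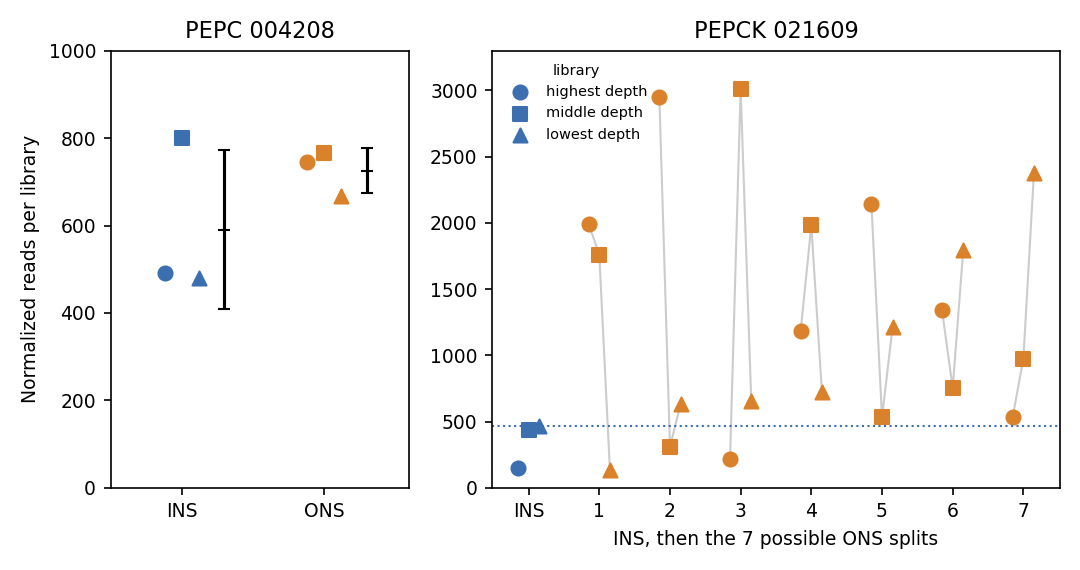
Normalized reads per library, with symbols for the depth rank of the library. On the left, PEPC LEMGIv51_A5_004208_1 in INS and ONS with the mean ± SD (bars, n = 3): the highest INS value, 801.2, lies above all ONS values; on the right, PEPCK LEMGIv51_A5_021609_1 in INS, then each of the 7 splits of its ONS reads that give the deposited means, with a dotted line at the highest INS value of 470.4, above which all 3 ONS libraries lie in splits 4 to 7.

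Leaving out the deepest INS library as well gave log2 fold changes of 0.74 to 1.42 for PEPCK LEMGIv51_A5_021609_1 over the 7 splits, with adjusted p of 0.0243 to 0.745. Over all 42 fits in which 1 library was left out of 1 split, the log2 fold change stayed above 0, between 0.27 and 2.57, and 10 fits had an adjusted p of at most 0.05. These fits are not independent checks. At most 1 of the 7 splits can be the true one, and all hold the same INS reads and the same ONS mean.

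PEPCK LEMGIv51_A5_021610_1 had authors' means of 1737 in INS and 4241 in ONS, a fold of 2.44 and a log2 ratio of 1.29. It stood at rank 207 of 15248, and among the genes with a mean of at least 500, 0.337% had a ratio as high. Its consecutive number places it next to PEPCK LEMGIv51_A5_021609_1 in the gene set. Reads of near-identical copies can be assigned to either copy. Whether these genes are such copies was not tested, since no sequence was compared, and their separate values are given with that limit. The sum of their means does not depend on how reads are divided between them. It was 2090 in INS and 5538 in ONS, 2.65-fold higher. The log2 ratio of LEMGIv51_A5_021610_1 was 0.59 below that of LEMGIv51_A5_021609_1 on the scale of the condition means, a difference with no error. The limma log2 fold changes of LEMGIv51_A5_021609_1, given above, are differences of mean log values. They cannot be set against the ratio of LEMGIv51_A5_021610_1, whose limma value is unknown.

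For scale, 1486 genes with recovered reads and a mean between 500 and 1000 had a median standard error of 0.23 for the log2 fold change in limma, with the 10th and 90th percentiles at 0.20 and 0.32. The standard error of PEPCK LEMGIv51_A5_021609_1 lay above that range in all 7 splits, at 0.43 to 0.85. The error typical of such genes was therefore not assumed for PEPCK LEMGIv51_A5_021610_1 or for the PEPC genes LEMGIv51_A5_001695_1 and LEMGIv51_A5_016663_1.

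**Figure D3:**
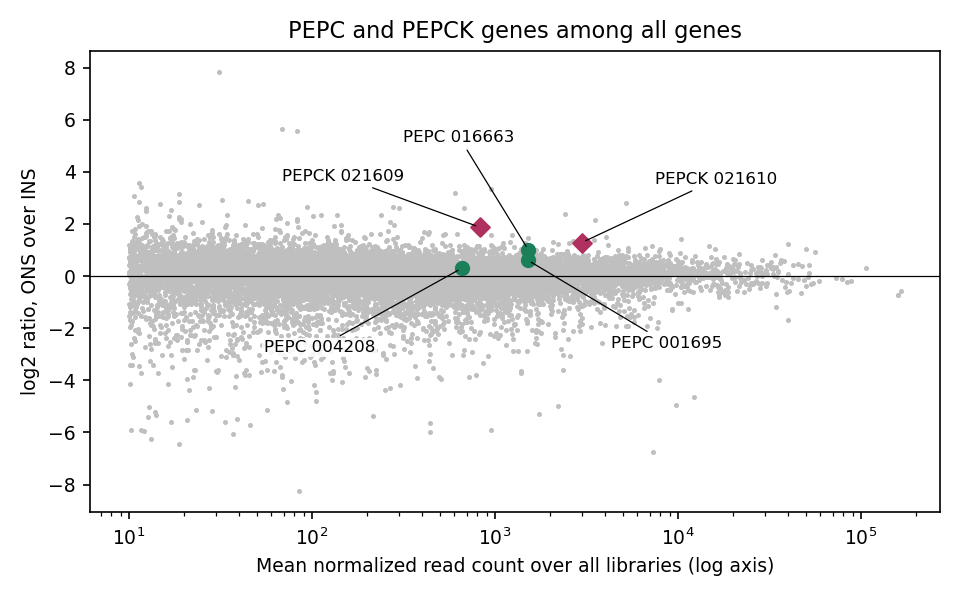
Log2 ratio of the condition means, ONS over INS, against the overall mean normalized read count (log axis) for the 15248 genes with a mean of at least 10 (grey), with the PEPC genes as green circles and the PEPCK genes as red diamonds. Both PEPCK genes lie along the upper edge of the cloud, with log2 ratios of 1.29 and 1.88, and PEPC LEMGIv51_A5_004208_1 lies inside it at 0.30.

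Since the enzymes run in opposite directions between PEP and oxaloacetate, their ratios were also set against each other. Transcript length cancels in such a contrast. In all 6 pairs of 1 PEPCK and 1 PEPC gene the PEPCK gene had the larger log2 ratio, by 0.28 for LEMGIv51_A5_021610_1 against LEMGIv51_A5_016663_1 up to 1.58 for LEMGIv51_A5_021609_1 against LEMGIv51_A5_004208_1. That count follows from the order of the ratios already given. The pairs share genes, so they give the size of the differences and are not separate comparisons. Summed over the 2 PEPCK and 3 PEPC genes with a row, PEPCK was 2.65-fold and PEPC 1.64-fold higher in ONS (log2 ratios of 1.41 and 0.71). These are differences of condition means with no error.

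A value per library was possible for 1 of the pairs, LEMGIv51_A5_021609_1 over LEMGIv51_A5_004208_1. In INS the ratio of normalized reads was 0.308, 0.547 and 0.981 from the deepest library to the shallowest and so was uneven among replicates of 1 condition. Over the 7 splits of the ONS reads the mean log2 ratio was 0.93 to 1.61 higher in ONS. The exact two-sided permutation test over the 6 libraries gave p = 0.10 in 2 of the splits and larger values in the rest, and 0.10 is the smallest p that 3 against 3 libraries allow.

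The enzymes that make or use PEP, pyruvate, oxaloacetate and malate around this step were taken from the same reaction table, as 11 lists with 47 genes. Of these, 42 had a row and 41 a mean of at least 10. Their median log2 ratio was 0.14. Of the 41, 26 were above 0, against 53.7% of all 15248 genes. None was at 1 or more, against 3.23% of all genes, and none among 41 lies near that share. Both PEPCK genes and PEPC LEMGIv51_A5_016663_1 were past 1. No gene of the lists had a ratio as high as PEPCK LEMGIv51_A5_021610_1, which 1.36% of all genes had.

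Only 9 of these genes had recovered reads and entered limma. None was called higher in ONS at an adjusted p of at most 0.05, against 0.911% of all genes tested. By that rule 1 was called lower, against 5.3% of all genes tested. None passed the 4-fold threshold in that direction (2.43% of genes tested did). The called gene was LEMGIv51_A5_009134_1, which the reaction table names as a 2,3-diphosphoglycerate-dependent phosphoglycerate mutase. That name rests on the study's enzyme prediction from protein sequence, and a role in glycolysis was not tested. The gene had 129.8, 80.4 and 94.1 normalized reads in INS and 40.2, 44.6 and 36.6 in ONS. Its log2 fold change was -1.28 (SE 0.31, limma adjusted p = 0.0358). The call was lost when any 1 of the 6 libraries was left out, with adjusted p of 0.0762 to 0.109.

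Malic enzyme, which turns malate into pyruvate and carbon dioxide, had the highest list median beside the members, 0.54 over 5 genes. Its gene LEMGIv51_A5_001160_1 had 178.9, 201.3 and 201.6 normalized reads in INS and 343.8, 307.8 and 383.9 in ONS. The log2 fold change of 0.82 (SE 0.22) had a limma adjusted p of 0.0565 and was not called. Its log2 ratio of condition means, 0.83, was the highest among the 41 genes and lay between those of PEPC LEMGIv51_A5_001695_1 and PEPC LEMGIv51_A5_016663_1.

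Pyruvate kinase, the main route from PEP to pyruvate, had list medians of -0.08 for 5 cytosolic genes and 0.23 for 5 plastidic genes. The cytosolic gene with the largest ratio, LEMGIv51_A5_005342_1, had a log2 fold change of 0.66 (SE 0.24, limma adjusted p = 0.159). The plastidic gene LEMGIv51_A5_010723_1 went from an authors' mean of 1920 in INS to 2983 in ONS. No plastidic gene and 2 of the 5 cytosolic genes entered limma, and neither of those 2 was called. The pyruvate, phosphate dikinase gene LEMGIv51_A5_019215_1, whose enzyme regenerates PEP from pyruvate, had a log2 ratio of -0.07.

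On the oxaloacetate side, the largest ratios were 0.56 for malate dehydrogenase LEMGIv51_A5_003791_1, 0.48 for aspartate transaminase LEMGIv51_A5_017399_1, 0.32 for citrate synthase LEMGIv51_A5_001719_1 and 0.10 for fumarase LEMGIv51_A5_014041_1. The list medians were 0.01 for malate dehydrogenase, 0.30 for aspartate transaminase and 0.06 for citrate synthase, all below the lowest PEPCK ratio. Of the genes for other uses of PEP, the PEP/phosphate translocator LEMGIv51_A5_011844_1, which carries PEP into plastids, had a log2 ratio of 0.45. The gene LEMGIv51_A5_001314_1 of DAHP synthase, the entry of the shikimate pathway, had one of -0.66, from an authors' mean of 2309 in INS to 1460 in ONS. The ratios of the named genes in this paragraph have no error, and the medians are given without one. All but LEMGIv51_A5_017399_1 had an overall mean above 1000, where reads were not solved for. For LEMGIv51_A5_017399_1 no single solution was kept.

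**Figure D4:**
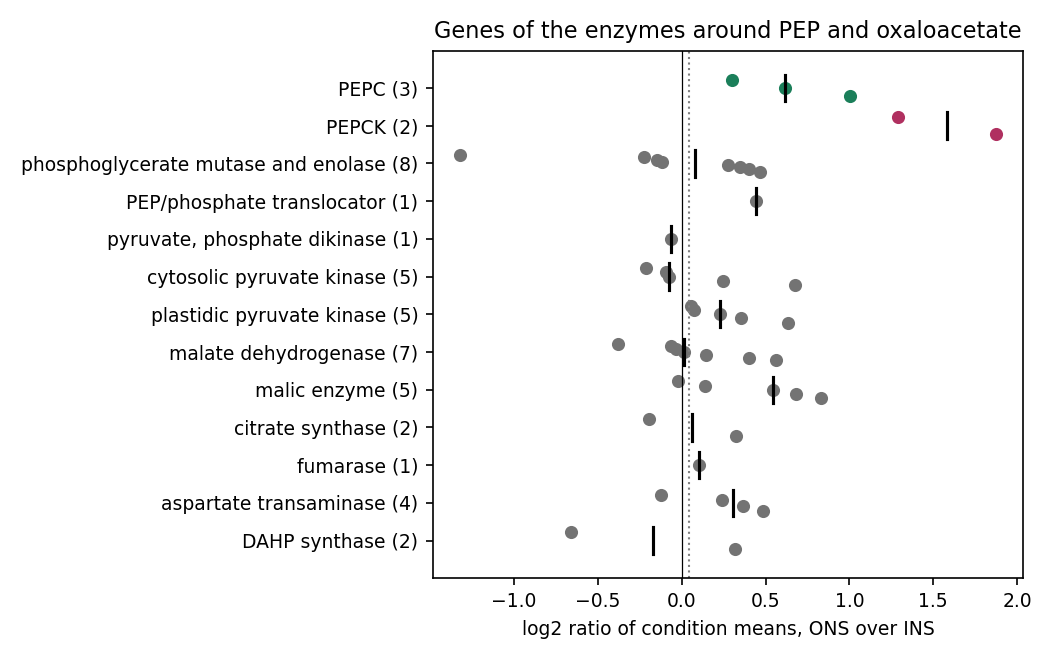
Log2 ratio of condition means, ONS over INS, for the genes of each enzyme around PEP and oxaloacetate (1 point per gene with a mean of at least 10, number of genes in parentheses), with the list median as a black bar and the median of all genes, 0.04, as a dotted line. PEPCK has both of its genes to the right of every other point, and phosphoglycerate mutase LEMGIv51_A5_009134_1 lies farthest left at -1.32.

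The likeness of PEPC LEMGIv51_A5_004208_1 to other genes of the reaction table could be measured over the 6 libraries. Among 82 such genes with recovered reads and a mean of at least 50, the closest by Pearson's r of log2(normalized reads + 1) were GMP synthase LEMGIv51_A5_021376_1 (r = 0.72), alanine-glyoxylate transaminase LEMGIv51_A5_007363_1 (0.69) and malate synthase LEMGIv51_A5_012282_1 (0.67). These correlations rest on 6 points that share libraries and conditions and are given as a description.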

How the data were processed

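The study aligned its reads to 21830 predicted transcripts of Lemna gibba with Bowtie and scaled the counts per gene with DESeq, per the labels and the study's methods. Versions are not given in the sources used here. The deposited values used are the authors' normalized signal: the mean of counts divided by size factors over all libraries, and over those of each condition. The table's other columns, the authors' fold changes, p-values, adjusted p-values and a significance mark, were not used.

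Whole reads behind each mean were solved for from the printed digits, for genes with an overall mean below 1000. A combination was kept only where it was the single one giving the INS, ONS and overall means. In simulated libraries, 2691 of 2964 means had 1 solution, and all 2691 were exact. The simulated means were built and solved with the same library weights, so a single solution had to be exact. This check shows how often 1 solution is found and does not cover error in the weights. Library weights were started from the lowest means and refined by least squares on means with 1 solution, from low means upward. Libraries are ordered by depth within a condition. Because recovery ends at a mean of 1000, counts of called genes describe the lower part of the expression range.

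The conditions were compared with limma 3.58.1 in R 4.3.3, using a pseudocount of 1, log2 values and a trend of variance on mean level. Genes under a mean of 10 were left out, and p-values were adjusted over all others by Benjamini-Hochberg. The main rule asked for an adjusted p of at most 0.05 and more than 4-fold, and a second rule for the adjusted p alone. Simulated counts with 200 changed genes were used as a check: 29 of 50 genes raised 2.5-fold and 50 of 50 raised 6-fold were called at the adjusted p. Of those lowered by the same folds, 27 of 50 and 49 of 50 were called, and of 10226 unchanged genes 3 were. All genes were simulated at 1 dispersion, 0.08, which was not fitted to these data, so these shares need not hold for them. The recovered reads were tested with limma, with voom weights as an alternative, and no count model was run on them. The p-values cover the spread between the 3 biological replicates of a condition. Reads were solved with Python 3.11.15, numpy 2.4.6 and numba 0.67.0.

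The genes named are the 5 members, the gene of each list with the largest absolute log2 ratio at a mean of at least 50, every called gene of the lists, and the 3 genes most like a member with recovered reads. The members and lists were chosen with earlier results of these data known. The alternatives were other pseudocounts, filters, scalings, limma settings and fold thresholds, and leaving out each library. Splitting PEPCK LEMGIv51_A5_021609_1 into its 7 read solutions, those fits and its INS mean without a library, and centring the members' log2 ratios on the median of all genes were added after seeing the data. Neither sequences nor transcript lengths were used here, so levels are not compared between genes.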

Additional observations from a re-analysis of the deposited data

How the results depend on the processing

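No paired analysis was possible because the table carries no replicate numbers and libraries recovered from it are known only by depth. PEPC LEMGIv51_A5_004208_1 kept its direction and stayed uncalled under every alternative run: its log2 fold change was 0.32 to 0.40 under 8 other settings and 0.21 to 0.58 without 1 library at a time. For PEPCK LEMGIv51_A5_021609_1, whose log2 ratio of means was 1.88, read splits 1, 2 and 3 gave 1.32, 1.40 and 1.26 in limma, an alternative added after seeing the data; in these splits 1 ONS library overlapped INS. Without 1 library at a time, also added later, the splits gave 0.27 to 2.57. Under voom weights 2 of the 7 splits had an adjusted p of at most 0.05, as in the fit without them. Centring on the median of all genes left every member above 0. Genes called higher in ONS past 4-fold numbered 31, and 13 with a pseudocount of 8, 9 at a mean of at least 100, 90 past 2-fold, and 20 to 39 without 1 library. Those called lower numbered 253, and 104 at a mean of at least 100, 521 past 2-fold, and 200 to 267 without 1 library. By adjusted p alone, 95 were higher and 553 lower, against 50 and 315 at a mean of at least 100, and 38 to 89 and 296 to 470 without 1 library. The lowest of these were reached without the ONS library of middle depth (20 and 38) and the INS library of middle depth (200 and 296). Reads were solved for up to a mean of 1000, a limit set here, and 11517 of 12713 genes below it had 1 solution. Of the members, 3 lay above the limit, and LEMGIv51_A5_021609_1 lay below it with 7 solutions.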
